A study of Saccharomyces cerevisiae with 8 samples.

Results

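The genes described here encode the enzymes of the yeast glycolysis from the aldolase step to pyruvate. They are *TDH1*, *TDH2*, *TDH3*, *PGK1*, *ENO1*, *ENO2*, *GPM1*, *CDC19*, *FBA1* and *TPI1*, 10 of the 6002 nuclear protein-coding genes of the sacCer3 annotation. They were chosen by name and function, not by their signal. For each gene the region examined ran from 1000 bp before the coding start to the end of the gene, and a peak was counted when its summit, the base with the highest fragment pile-up, lay inside. Offsets below are in bp from the coding start on the gene strand, negative upstream.

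Glycolysis breaks glucose down to pyruvate and supplies most of the ATP of *Saccharomyces cerevisiae* fermenting sugar. Its genes are among the most strongly transcribed of this yeast, and their promoters are known as sites of the general regulatory factor Rap1, the activator Gcr1 with its partner Gcr2, and in some cases Reb1 or Abf1. Several steps have paralogues: 3 glyceraldehyde-3-phosphate dehydrogenases (*TDH1*, *TDH2*, *TDH3*) and a pair of enolases (*ENO1*, *ENO2*). ATAC-seq reads out such promoters because the Tn5 transposase inserts its adapters preferentially into DNA that nucleosomes leave free.

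*TDH1* (YJL052W, chrX:338271-339269), *PGK1* (YCR012W, chrIII:137746-138996), *ENO1* (YGR254W, chrVII:1000927-1002240), *ENO2* (YHR174W, chrVIII:451327-452640) and *CDC19* (YAL038W, chrI:71786-73288) are on the plus strand. *TDH2* (YJR009C, chrX:453683-454681), *TDH3* (YGR192C, chrVII:882812-883810), *GPM1* (YKL152C, chrXI:163642-164385), *FBA1* (YKL060C, chrXI:326408-327487) and *TPI1* (YDR050C, chrIV:555726-556472) are on the minus strand. The next gene upstream is divergent for 6 of them and tandem for *TDH3*, *GPM1*, *FBA1* and *TPI1*, at distances from 173 bp (*ENO2*) to 2260 bp (*CDC19*).

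Chromatin accessibility was measured in 8 libraries from 4 strains of BY4741, a laboratory strain, with 2 clones of each. All strains carried synthetic DNA of human origin, either the *HPRT1* locus (synHPRT1, below HPRT1) or the same locus reversed but not complemented (synHPRT1R, below HPRT1R), as an episome (YAC) or integrated on chromosome XI. Episomal strains grew in SC-Leu and integrated strains in YPD, both at 30 °C into mid-log phase, so that context and medium cannot be told apart. No strain without a synthetic locus was analysed here, and the native genes, which are the same in all strains, serve as the subject. The p-values below measure the spread between these libraries, whose clones share a strain.

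The lists held 1029 to 1337 peaks, of which 988 to 1284 lay on nuclear chromosomes, and peaks on the vector backbone occurred in all 4 episomal lists (3 or 4 each) and in none of the 4 integrated lists. Read totals were not used here. The number of fragments over each summit was recovered from the deposited fold enrichment and p-value, and was divided by the genome-wide background of the library, 4.97 to 6.93 fragments per base, to give a scaled height. This background also contains fragments from the synthetic locus and the mitochondrial genome. The lowest summit listed on a nuclear chromosome had 13 to 16 fragments, which is the limit of detection of each list. In a culture, an opening in more cells and a wider opening in each cell cannot be told apart.

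Every gene of the group had a peak summit upstream of its coding start in every list, and in each of the 80 pairs of gene and list it was exactly 1 summit. Of all 6002 protein-coding genes, 698 (11.6%) had a summit in the region in all 8 lists, and 600 (10%) had one in the 1000 bp upstream. The regions of the 10 genes were 1744 to 2503 bp long, against a median of 2200 bp over all genes. With peaks of -log10 q of at least 5 only, 6 of the 10 genes kept a summit in all lists (*TDH2*, *TDH3*, *PGK1*, *ENO1*, *ENO2* and *FBA1*), and at 10 only *PGK1* and *ENO2* did.

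The sequence around the median position of these summits is shown for all genes of the group except *CDC19* and *GPM1*, whose windows held none of the motifs marked here. Each sequence is given as 101 bases centred on the median upstream summit, on the gene strand, from the RefSeq R64 assembly of sacCer3. Summits of single lists can lie outside a window, as for *FBA1*, with a window from -425 to -325 and summits from -491 to -213. Capitals mark the letters CACCCNNAC (core of a Rap1 site), CTTCC (core of a Gcr1 site), TTACCCG (Reb1) or GGCATCC, a further form of the Gcr1 site that was added after the sequences had been seen, on either strand. These motifs shared no letter in the windows shown. The 3 TDH windows lie at chrX:337808-337908 (plus strand), chrX:454998-455098 (minus strand) and chrVII:884233-884333 (minus strand).
TDH1: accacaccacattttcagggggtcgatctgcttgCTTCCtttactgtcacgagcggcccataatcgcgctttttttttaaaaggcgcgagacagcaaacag
TDH2: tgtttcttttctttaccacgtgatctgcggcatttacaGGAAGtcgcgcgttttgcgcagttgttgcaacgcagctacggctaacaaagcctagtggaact
TDH3: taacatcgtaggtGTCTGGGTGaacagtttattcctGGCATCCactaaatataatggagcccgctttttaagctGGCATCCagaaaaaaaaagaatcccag

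The windows of both enolase genes, chrVII:1000441-1000541 and chrVIII:450844-450944, and that of *PGK1*, chrIII:137271-137371, are on the plus strand and belong to the highest peaks of the group.
ENO1: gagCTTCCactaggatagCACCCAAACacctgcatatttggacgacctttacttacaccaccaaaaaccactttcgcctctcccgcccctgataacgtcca
ENO2: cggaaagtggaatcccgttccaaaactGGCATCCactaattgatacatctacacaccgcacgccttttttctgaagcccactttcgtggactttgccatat
PGK1: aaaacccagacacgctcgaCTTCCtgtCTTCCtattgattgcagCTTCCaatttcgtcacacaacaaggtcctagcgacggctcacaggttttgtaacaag

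The windows of *FBA1* (chrXI:327812-327912) and *TPI1* (chrIV:556792-556892), both on the minus strand, each held GGCATCC. The *TPI1* window also held the only Reb1 match among the genes, flanked by Gcr1 letters.
FBA1: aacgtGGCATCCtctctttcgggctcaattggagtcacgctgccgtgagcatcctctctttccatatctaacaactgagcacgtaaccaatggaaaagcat
TPI1: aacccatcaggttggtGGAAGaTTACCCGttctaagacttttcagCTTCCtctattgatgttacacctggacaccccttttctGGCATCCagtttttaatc

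Within the 1000 bp upstream, the Rap1 core was present before *TDH3* (first base at -510, reverse strand), *ENO1* (-468), *GPM1* (-395) and *CDC19* (-653), 4 of 10 genes against 7.91% of all protein-coding genes. CTTCC stood before 9 of 10 genes, but also before 88.7% of all genes, so its presence alone separates nothing. *PGK1* carried 3 copies within its window, at -456, -448 and -431. *TDH3*, the gene without CTTCC, had GGCATCC at -487 and -449, and *ENO2* had it at -456, *FBA1* at -420 and *TPI1* at -337, 4 of 10 genes against 5.3% of all genes. The Reb1 letters were found before *TPI1* at -398 (13.5% of all genes), and the Abf1 consensus, searched on both strands, before 7 of 10 genes (36.8% of all genes). The windows of *CDC19* and *GPM1* held none of the capitalized motifs. A match is a description of letters and was not tested as a binding site. Only exact matches were counted, so a gene without one may hold a variant. In the *PGK1* window, for instance, aacccagac differs from the Rap1 core in its first base and was not counted.

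The TATA letters TATAAA, searched on the gene strand only, occurred before 9 of 10 genes (55% of all genes), all except *GPM1*. In those 9 genes a copy began between -199 (*CDC19*) and -123 (*FBA1*). In the interval from -200 to -101, chosen after these positions had been seen, 13.1% of all genes held TATAAA. The upstream summit lay farther from the coding start than this copy in all 72 pairs of gene and list, by 39 to 430 bp with a median of 244.5 bp. The median upstream offsets of the 600 genes with an upstream summit in all lists had quartiles of -613 and -319. Both lie beyond this interval too, so the order does not set these genes apart.

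The position of the summit was examined next. The median upstream offset of the 10 genes ranged from -295.5 (*GPM1*) to -476 (*CDC19*), and the middle of the group (median -418.8) was close to the median over the 600 genes, -432. *ENO2* had the most reproducible position, with offsets of -436 and -433 in the HPRT1 episomal clones, -435 and -433 in the HPRT1 integrated clones, -434 and -431 in the HPRT1R episomal clones, and -432 and -401 in the HPRT1R integrated clones. Thus 7 of 8 summits lay within 5 bp of the median, and the SD over libraries, 11.6 bp, stood low among the 600 genes, with 2% of them at or below it and a median SD of 79.4 bp.

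*ENO2* lies 173 bp from the annotated upstream gene *YHR173C*, on the other strand, and its upstream summit fell inside that gene in every list. *ENO1*, encoding the other enolase, had its summit between -436 and -435 in 5 lists, at -369 in 1 HPRT1R integrated clone and at -575 and -576 in the HPRT1 integrated clones. Both clones of 1 strain therefore shared a position not seen in the other strains. *FBA1*, which encodes aldolase, showed the same kind of pair: the HPRT1R episomal clones had summits at -215 and -213, and the other 6 lists at -357 to -491. In *TDH3* the summits split into 5 between -493 and -472 and 3 between -318 and -227. *TDH1* had its upstream summit inside its divergent neighbour *YJL052C-A* in both HPRT1 integrated clones and in the second HPRT1R episomal and integrated clones. In the remaining lists it lay outside any other gene.

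*GPM1*, encoding phosphoglycerate mutase, had the most variable position, with an SD of 154 bp. Its summits lay between -343 and -152 in 7 lists and at -666 in the first HPRT1R episomal clone, where the summit fell inside the upstream neighbour *NNR2*. *TPI1*, encoding triosephosphate isomerase, had the lowest median width of the upstream peak, 225.5 bp with a range of 159 to 415 bp. *ENO1* had the highest, 670 bp with a range of 570 to 727 bp. The narrowest single upstream peak was one of *TDH1* (145 bp) and the widest one of *FBA1* (749 bp). The median width of upstream peaks over the 600 genes was 423.5 bp. *GPM1* and *FBA1* lie on chromosome XI, which also carries the integrated locus.

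**Figure D1:**
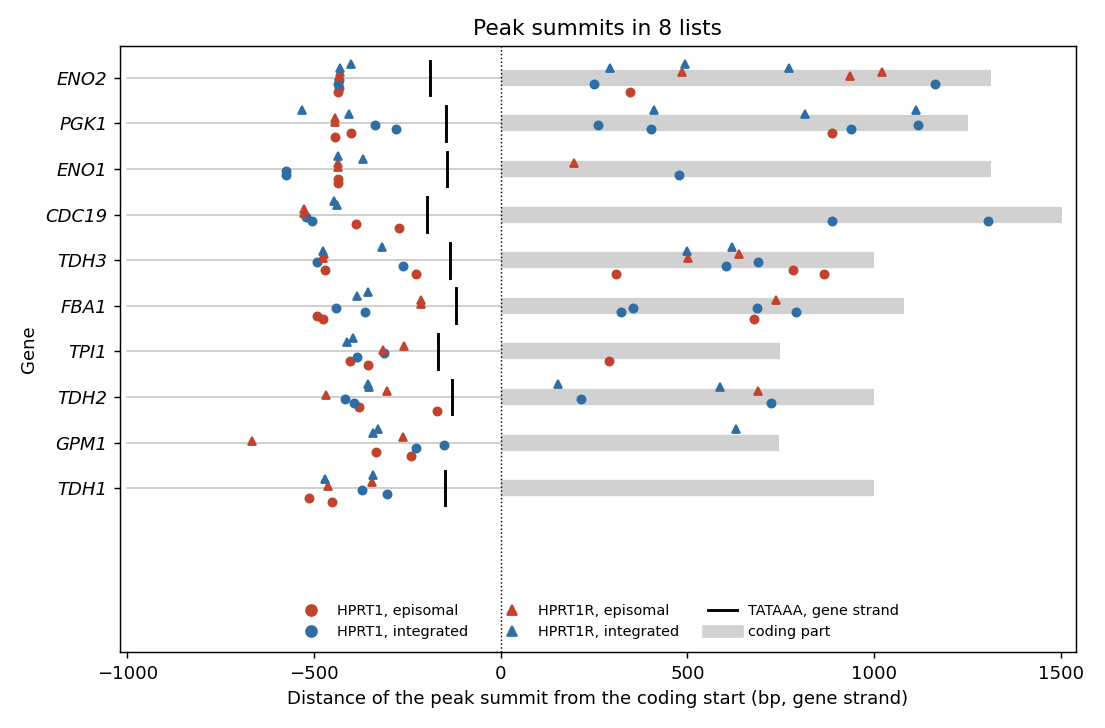
Peak summits of the 10 genes in 8 lists, by distance from the coding start in bp (x axis) and gene (y axis, ordered by height), with colour for context and marker shape for insert. Each gene has 1 upstream summit per list, from -666 to -152, all upstream of the TATAAA copy between -200 and -101 where one occurs (black bars). *TDH3* alone has a summit in its coding part (grey) in every list.

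Peak height differed among the genes. The highest upstream peak belonged to *ENO2*, the enolase gene known to be induced by glucose, with a median scaled height of 7.24 (mean 7.19 ± 1.08, SD, n = 8 libraries). It was followed by *PGK1*, encoding phosphoglycerate kinase, with a median of 6.40 (mean 6.32 ± 0.87), and *ENO1* with 6.05 (mean 6.14 ± 1.59). *TDH1* with 3.65 (mean 3.55 ± 0.47) and *GPM1* with 3.72 (mean 4.06 ± 0.997) were lowest. Between these lay *CDC19*, encoding the main pyruvate kinase (4.92), *TDH3* (4.83), *FBA1* (4.68), *TPI1* (4.61) and *TDH2* (4.58). This order rests on the genome-wide background. The local background under the *CDC19* summits was 1.12 to 1.62 times the genome-wide one. Over the local background the deposited fold enrichment was 2.72 to 4.53 for *CDC19*, against 3.37 to 5.36 for *TDH2* and 3.37 to 4.52 for *FBA1*. The place of *CDC19* therefore depends on the background used.

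Among the 600 genes with an upstream summit in every list, whose median scaled height was 4.65, the medians of *ENO2*, *PGK1* and *ENO1* stood at percentiles 97.3, 95.2 and 92.2. Those of *GPM1* and *TDH1* stood at 8.5 and 6.5, and those of the other genes at 43.8 to 63. The group thus held peaks from both ends of this range and was not uniformly high. The genes outside the 600 have no such summit in at least 1 list, so these percentiles rank a gene only among the regularly detected promoters.

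*ENO2* had 42 and 42 fragments at the summit in the HPRT1 episomal clones, 56 and 43 in the HPRT1 integrated clones, 43 and 35 in the HPRT1R episomal clones, and 33 and 44 in the HPRT1R integrated clones. *PGK1* had 39 and 34, 46 and 35, 32 and 35, and 37 and 38 fragments in the same order. *TDH1* had 18 and 25, 27 and 24, 16 and 18, and 20 and 20. Every *ENO2* and *PGK1* count was above every *TDH1* count. The lowest, 16 fragments in the first HPRT1R episomal clone, has a 95% Poisson interval of 9.15 to 25.98, and the highest, 56, one of 42.3 to 72.7. These intervals cover counting error only, and duplicate fragments were kept by the authors.

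The remaining genes are given by library in the same order, as scaled heights of the upstream peak. *CDC19* had 3.82 and 4.90 in the HPRT1 episomal clones, 4.93 and 4.67 in the HPRT1 integrated clones, 5.15 and 5.67 in the HPRT1R episomal clones, and 4.06 and 6.23 in the HPRT1R integrated clones. The local background under the last of these was 1.62 times the genome-wide background, the largest such ratio in the group. *GPM1* had 2.96 and 3.46, 3.88 and 3.17, 3.55 and 4.46, and 5.35 and 5.63, so that the HPRT1R integrated clones stood above the other 6 libraries. *FBA1* had 4.35 and 4.33, 3.88 and 5.004, 5.15 and 3.78, and 5.17 and 5.43. Here too the HPRT1R integrated clones were the highest, but by a small margin over the first HPRT1R episomal clone. Their *FBA1* counts, 28 and 27 fragments, were below the 29 of that clone and the 30 of each second HPRT1 clone, and above the remaining libraries. The ranking thus holds only after division by the background.

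Neighbours in the order of heights mostly did not differ beyond their spread. *CDC19* and *TDH3* differed by a mean log2 ratio of -0.04 ± 0.15 (SD over 8 libraries), *FBA1* and *TPI1* by 0.01 ± 0.33, and *TPI1* and *TDH2* by -0.04 ± 0.28, with *FBA1* above *TPI1* in 4 of 8 libraries. The steps from *ENO1* to *CDC19* (0.29 ± 0.25, 7 of 8 libraries) and from *TDH2* to *GPM1* (0.25 ± 0.34, 6 of 8 libraries) were the widest between neighbours. The spread of the counts was also taken around counts expected in proportion to the background of each library. For 6 of the 10 genes this variance was below the Poisson variance. The ratio to the Poisson variance was largest for *ENO1* (2.26), against a median of 0.95 over the 600 genes. Each count is the highest of its upstream part, and summits under the limit of detection are not listed. The Poisson variance is therefore a rough reference only.

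**Figure D2:**
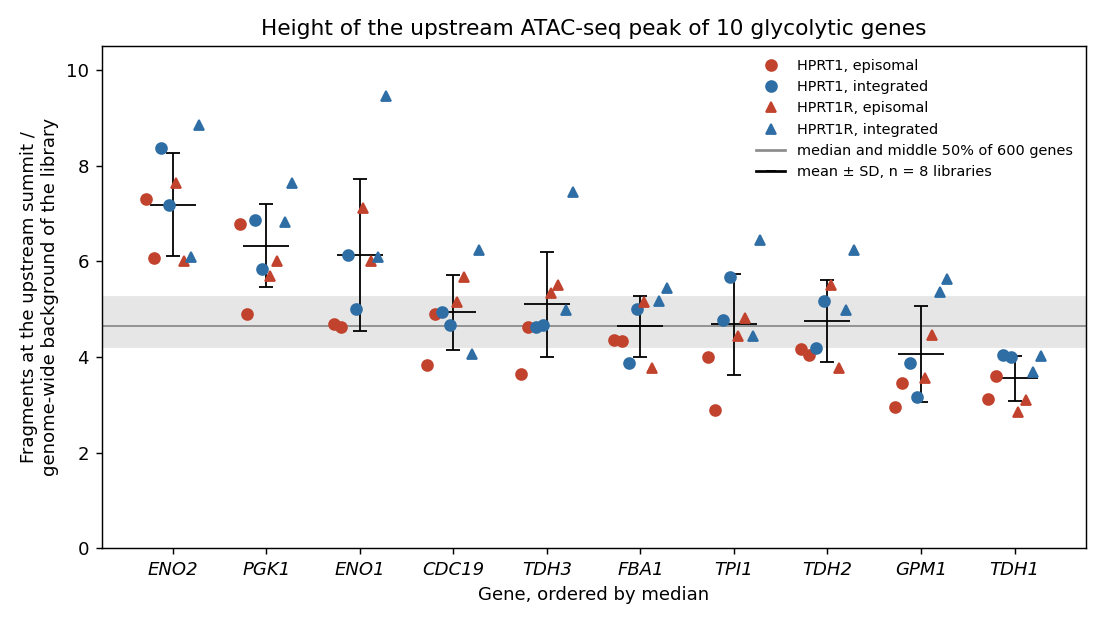
Scaled height of the upstream peak (fragments at the summit divided by the genome-wide background of the library, y axis from 0) for 10 genes, with 1 point per library and the mean ± SD of 8 libraries in black. *ENO2*, *PGK1* and *ENO1* have medians of 7.24, 6.40 and 6.05, above the middle 50% of the 600 genes (grey, around 4.65), and *GPM1* and *TDH1* have medians of 3.72 and 3.65, below it.

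Paralogues were then compared within each library, where depth cancels, on the highest summit of the region. *TDH3*, encoding the main glyceraldehyde-3-phosphate dehydrogenase, had scaled heights of 4.17 and 4.62 in the HPRT1 episomal clones, 4.63 and 4.67 in the HPRT1 integrated clones, 5.33 and 5.50 in the HPRT1R episomal clones, and 5.17 and 7.44 in the HPRT1R integrated clones. *TDH2* had 4.17 and 4.04, 4.18 and 5.17, 5.51 and 3.95, and 4.98 and 6.23 in the same order. *TDH1*, the paralogue known from cells entering stationary phase, had 3.13 and 3.61, 4.03 and 4.003, 2.84 and 3.09, and 3.69 and 4.02. *TDH1* was lowest in every library, and the *TDH2* and *TDH3* values overlapped.

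The log2 ratio of *TDH3* to *TDH1* was 0.54 ± 0.29 (SD, 8 libraries), positive in 8 of 8 libraries, with an exact two-sided sign-flip p of 0.0078, the smallest that 8 libraries allow, and 0.0156 after adjustment over the 4 pairs. The ratio of *TDH2* to *TDH1* was 0.42 ± 0.28, also positive in 8 of 8 libraries, with the same exact p of 0.0078 (adjusted 0.0156). Between *TDH3* and *TDH2* the ratio was 0.12 ± 0.20, with *TDH3* higher in 5 libraries, *TDH2* in 2 and 1 tie, which was within the spread (exact p = 0.141, adjusted 0.141). Here the 8 libraries were treated as independent, although clones share a strain. With the means of the 4 strains as units, a choice made after the data were seen, *TDH1* was lowest in 4 of 4 strains, and the p of 0.125 (adjusted 0.25) is the smallest that 4 strains allow.

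On the summit nearest the coding start, instead of the highest, the *TDH2* to *TDH1* ratio was 0.14 (exact, adjusted p = 0.656). In the second HPRT1 and the second HPRT1R integrated clone the nearest *TDH2* summit was a coding one. On the upstream summit alone both ratios to *TDH1* kept p = 0.0078 by the exact test, at 0.51 ± 0.31 and 0.41 ± 0.28. At a -log10 q of at least 5 *TDH1* was missing from at least 1 list and no ratio could be formed.

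The enolase genes were closer. *ENO2* had scaled heights of 7.30 and 6.06 in the HPRT1 episomal clones, 8.36 and 7.17 in the HPRT1 integrated clones, 7.64 and 6.01 in the HPRT1R episomal clones, and 6.09 and 8.85 in the HPRT1R integrated clones. *ENO1* had 4.69 and 4.62, 6.12 and 5.00, 7.11 and 6.01, and 6.09 and 9.45. *ENO2* was higher in 5 libraries, including all 4 HPRT1 libraries, 2 libraries tied and *ENO1* was higher in 1. The log2 ratio of 0.25 ± 0.28 did not pass the exact sign-flip test (p = 0.0625, adjusted 0.0833).

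Paralogues can exchange reads where their sequences are the same, and the reads were short. The coding sequences of *TDH3* and *TDH2* were 95.8% identical over 999 bp, those of *TDH3* and *TDH1* 88.9%, those of *TDH2* and *TDH1* 90.2%, and those of *ENO2* and *ENO1* 94.8% over 1314 bp. Of the 36-base words in the coding parts, 22.4% (*TDH1*), 44.3% (*TDH2*), 37% (*TDH3*) and 33.6% (each enolase gene) occurred more than once in the nuclear genome. In the 1000 bp upstream of these 5 genes no 36-base word did. Reads under the upstream summits can thus be placed at 1 position, and those under coding summits of these 5 genes only in part. Whether an upstream summit belongs to the gene or to its upstream neighbour was not tested.

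**Figure D3:**
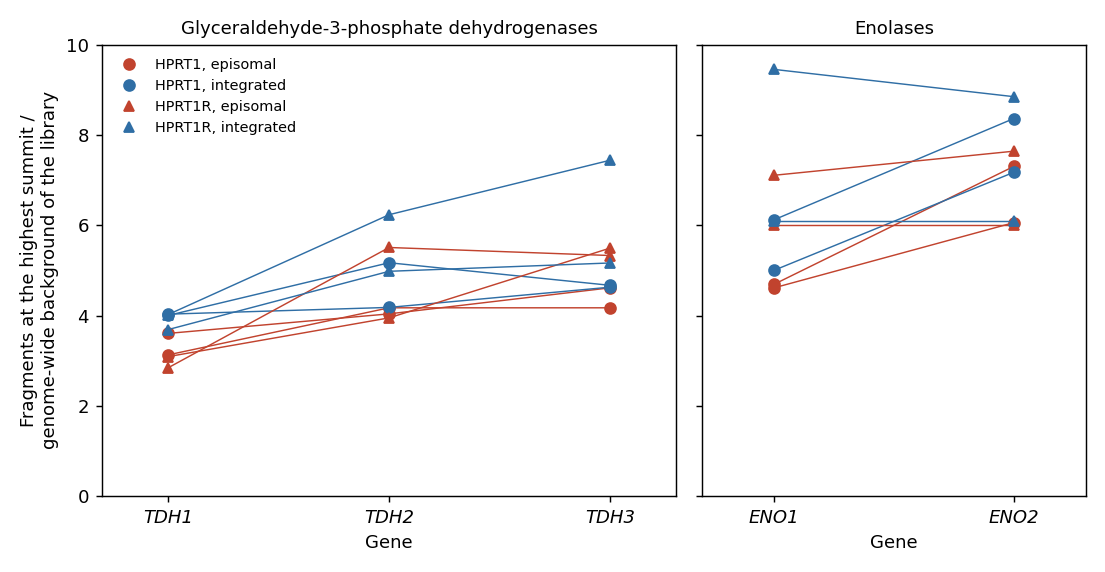
Scaled height of the highest summit (y axis from 0) of the glyceraldehyde-3-phosphate dehydrogenase genes (left) and the enolase genes (right), with 1 line per library. *TDH1* is lowest in all 8 libraries, between 2.84 and 4.03, while *TDH2* and *TDH3* change order and *ENO2* is above *ENO1* in 5 of 8.

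Peaks also occurred inside the coding parts. Of the 123 summits in the 10 regions, 80 were upstream and 43 in the coding part, and 9 of 10 genes had a coding summit in at least 1 list. *TDH3* had one in all 8 lists, a property shared by 64 of all 6002 genes (1.07%), with offsets from 309 to 866, scaled heights of the higher summit from 3.58 to 5.17 and a single peak of up to 963 bp in a gene of 999 bp. *ENO2* had coding summits in 6 lists, *PGK1* and *TDH2* in 5 each and *FBA1* in 4. *ENO1* had them in 2 lists, *CDC19*, *GPM1* and *TPI1* in 1 each, and *TDH1* in none.

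A coding summit occurred in 33 of the 80 pairs of gene and list and was the highest of the region in 4 of them. These were *TDH3* in the first HPRT1 episomal clone (24 fragments against 21 upstream) and the first HPRT1R integrated clone (28 against 27), *TDH2* in the second HPRT1R episomal clone (23 against 22) and *FBA1* in the first HPRT1 integrated clone (29 against 26). None of these differences exceeds counting error. Per list, 2 to 5 of the 10 genes had a coding summit in the episomal lists, against 3.25% to 3.60% of all genes. In the integrated lists 4 to 7 of them had one, against 3.53% to 4.05% of all genes. The numbers of coding summits were 15 over the episomal and 28 over the integrated lists, of which 11 came from the first HPRT1 integrated clone. The integrated lists of HPRT1R were the longest, but held only 5 and 6 coding summits of these genes. The part of list length in this difference was not tested.

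The study compared episomal with integrated strains, and the heights were set against that design. Episomal libraries had lower means than integrated libraries for all 10 genes, by a log2 difference of -0.02 (*CDC19*) to -0.41 (*TPI1*) with a median of -0.22. The median over all 698 genes tested was -0.17, and relative to it 7 genes were below and 3 above. No difference passed the exact permutation test with Benjamini-Hochberg adjustment over 698 genes (adjusted p of the 10 genes from 0.399 to 0.96). Across all genes 0 passed and 50 had an unadjusted p under 0.05. The smallest p of this design, 0.0286, can pass the adjustment only if at least 57.1% of all genes reach it.

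*TDH1* was the 1 gene of the group whose groups did not overlap. Its scaled heights were 3.13, 3.61, 2.84 and 3.09 in the episomal libraries and 4.03, 4.003, 3.69 and 4.02 in the integrated libraries, a log2 difference of -0.32 ± 0.08 (SE, 4 against 4 libraries) with an exact permutation p of 0.0286 and an adjusted p of 0.399. Of all 698 genes, 50 (7.16%) had every integrated library above every episomal one, and 0 (0%) the reverse, so that 1 of 10 genes is near the background. With scaling by 500 regions that held a peak in all 8 lists, the median difference over all genes moved to -0.00050 and that of *TDH1* -0.15 (exact permutation p = 0.286).

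*TPI1* had the largest context difference, -0.41 ± 0.20 (SE), with scaled heights of 3.999, 2.88, 4.44 and 4.81 in the episomal and 4.78, 5.67, 4.43 and 6.44 in the integrated libraries, which overlapped (exact permutation p = 0.143, adjusted 0.475). Its difference was -0.62 between the HPRT1 strains and -0.21 between the HPRT1R strains. *CDC19* had the smallest, -0.02 ± 0.18, with -0.15 between the HPRT1 strains and 0.10 between the HPRT1R strains. Under the scaling by shared regions *TDH3* (0.03), *ENO2* (0.00255) and *CDC19* (0.15) changed sign.

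The insert was compared as a second factor, since the native genes do not differ between HPRT1 and HPRT1R strains. Libraries with HPRT1 had lower means for 8 of 10 genes and higher for *TDH1* (0.12) and *ENO2* (0.03), with a median difference of -0.21 against -0.19 over the 698 genes. *TDH3* did not overlap, with all HPRT1R libraries (5.33, 5.50, 5.17 and 7.44) above all HPRT1 libraries (4.17, 4.62, 4.63 and 4.67), a log2 difference of -0.36 ± 0.13 (SE) with an exact permutation p of 0.0286 and an adjusted p of 0.399. Such a separation was found for 37 of 698 genes (5.3%) in this direction and for 1 gene (0.143%) in the other. After scaling by shared regions the *TDH3* difference was -0.17 (exact permutation p = 0.257). *GPM1* (-0.48 ± 0.17) and *ENO1* (-0.47 ± 0.18) had the largest insert differences, with adjusted p of 0.399 and 0.404 by the exact permutation test. Across all genes 0 passed the adjustment and 38 had an unadjusted p under 0.05.

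The second HPRT1R integrated clone moved with both comparisons. It had the lowest genome-wide background (4.97) and the highest scaled value for 9 of 10 genes, all except *TDH1*. Under the scaling by shared regions it was the highest library for 2 of 10 genes, *TDH3* and *ENO1*. Without this library the number of genes with an unadjusted p under 0.05 for context fell from 50 to 29 of 714, and without the first HPRT1R integrated clone to 27 of 713. For the insert, leaving out the first or the second HPRT1R episomal clone raised it from 38 to 71 and 64.

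**Figure D4:**
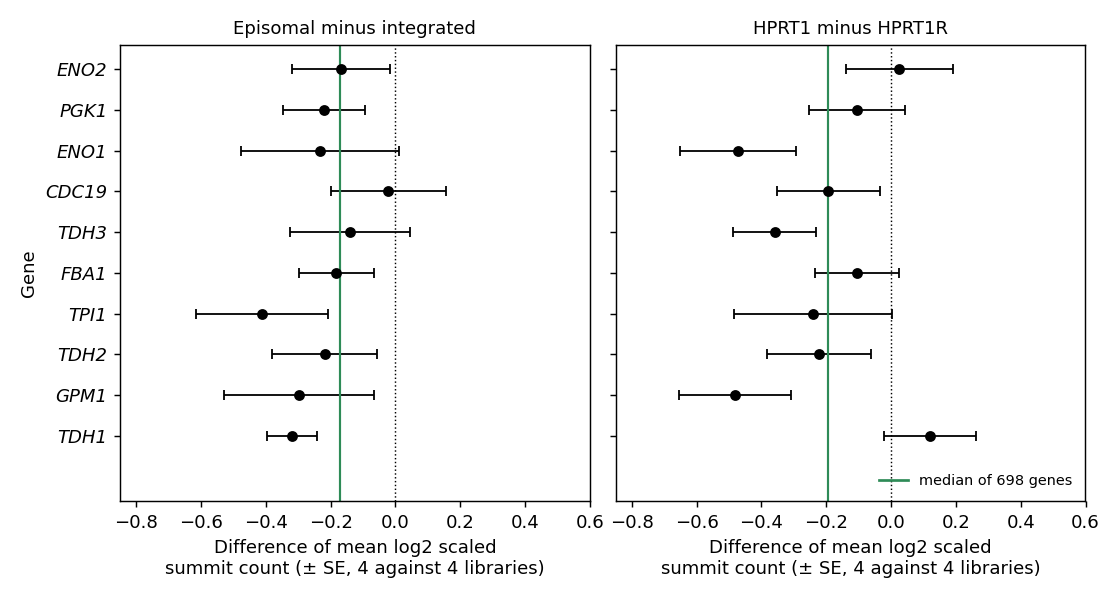
Difference of mean log2 scaled height for 10 genes between episomal and integrated libraries (left) and between HPRT1 and HPRT1R libraries (right), with the standard error of 4 against 4 libraries. The points lie around the median of all 698 genes (green, -0.17 and -0.19), from -0.41 to -0.02 on the left and from -0.48 to 0.12 on the right.

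The rest of the pathway was read in the same way. Of 9 other genes of glycolysis, 5 had a summit in all 8 lists, namely *HXK2* (the main hexokinase on glucose), *GLK1* (glucokinase), *PGI1* (phosphoglucose isomerase) and *PFK1* and *PFK2* (both subunits of phosphofructokinase). Their median scaled heights were 4.49, 5.15, 4.56, 5.28 and 5.79, inside the range of the 10 genes. The *PFK1* summits lay far upstream, at a median offset of -881.5. *GPM2* and *GPM3*, homologues of *GPM1*, had no summit in any list, and *HXK1* and *PYK2*, named after their values were seen, had one in 1 list, the first HPRT1R integrated clone. Only called peaks are listed, so that a gene without one may have had a lower summit.

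Gluconeogenesis runs the pathway backwards and is repressed by glucose. *FBP1*, encoding fructose-1,6-bisphosphatase, had a summit in all 8 lists (median scaled height 5.27, range 4.18 to 6.44), and *PCK1*, named after its values were seen, in 5. Among 6 regulators, *TYE7*, an activator of glycolytic genes, had a summit in all 8 lists (median 6.18), *GCR2* in none, and *GCR1*, *REB1* and *ABF1* in 7 and *RAP1* in 1, these 4 named after their values were seen. The *TYE7* and *FBP1* values were thus as high as those of many of the 10 genes. Their summits lay farther upstream, at median offsets of -749 (*TYE7*) and -572 (*FBP1*), against -295.5 to -476 for the 10 genes. Whether these peaks belong to a neighbouring gene was not tested.

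Outside these lists, the genes whose 8 values followed the mean of the 10 genes most closely were *KTR1* and *NUP1* (Pearson r = 0.94 each) and *SFP1* (r = 0.93). *KTR1* and *NUP1* are neighbours and share the same peak, with scaled heights from 3.32 to 6.03, and *SFP1* ranged from 3.65 to 8.65. The geometric mean of the 10 genes ran from 4.26 in the second HPRT1 episomal clone to 6.55 in the second HPRT1R integrated clone. All these values share the same 8 backgrounds, and the correlations over 8 libraries are a description.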

How the data were processed

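Chromatin accessibility was profiled by ATAC-seq in 8 libraries, 2 clones of each of 4 strains, grouped by insert and context as labelled. Per the labels and the study's methods, the authors aligned paired-end reads with Bowtie2 2.2.9 to sacCer3 to which the synthetic locus with its vector had been added, and ran MACS2 2.1.0 on the whole fragments of each library, without a control, with duplicates kept. No shift to the transposase cut site is stated. In the deposited lists each summit has a fold enrichment (a ratio with a pseudocount of 1) over the background of its own library, with its p-value and q-value as -log10. The study's methods give 1 approximate read number per sample, the same for every library, which was not used here, and the depth of each library is read from its background.

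From fold enrichment and p-value the whole fragment count N and background B were solved with (N + 1)/(B + 1) and the Poisson tail, within 0.001 in -log10 p for 99.3% to 99.6% of peaks; on 1000 simulated peaks 100% of the counts were recovered. The exact tests were also tested on simulated data. Values were log2(count / genome-wide background). Context and insert were tested by exact two-sided permutation of 8 libraries (70 arrangements) for 698 genes with Benjamini-Hochberg adjustment, and paralogues by sign flips (256). Genes and sequences came from RefSeq R64. Python 3.11.15, NumPy 2.4.6, pandas 2.3.3, SciPy 1.17.1 and matplotlib 3.10.9 were used.

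All 10 genes were named. Of the lists of other pathway genes, those with a summit in all lists or in none were named, and outside them the 3 genes closest to the mean profile. The genes, lists and motifs were chosen with earlier results of these data known. Alternatives were stricter q thresholds, lists of equal length, other regions and overlap rules, another scaling, the deposited fold enrichment, the nearest peak, restricted permutations, a replicate block and each library left out. Peaks on the mitochondrial genome and the synthetic locus were left out.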

Additional observations from a re-analysis of the deposited data

Results flagged for a closer look

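In 60 groups of 4 libraries of 1 context (height, offset and width of the upstream peak of 10 genes), 7 had 1 library far from the other 3. The rule flags about 1 in 20 groups of independent normal values. These counts, offsets and widths come from clones of different strains and need not be normal, so the 7 flags cannot be set against that rate. Of the heights, *TDH3* stood apart at 7.44 in the second HPRT1R integrated clone, which was above the other integrated libraries, and *TDH1* at 3.69 in the first HPRT1R integrated clone, below the other integrated libraries. Of the offsets, *TDH3* was at -227 in the first HPRT1 episomal clone, *PGK1* at -400 in the second HPRT1 episomal clone and *ENO2* at -401 in the second HPRT1R integrated clone, each nearer to the coding start than in the other libraries of its context. Of the widths, *ENO1* reached 719 bp in the second HPRT1 episomal clone and *CDC19* 475 bp in the first HPRT1R integrated clone.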

How the results depend on the processing

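The count of 10 genes with a summit in all lists held for lists without peaks that could not be solved, the upstream part alone, overlap by 1 bp or by 50% and each library left out. It was 9 with lists of equal length, without *TDH1*. With peaks past a -log10 q of 5 it was 6, past 10 it was 2, with 500 bp upstream it was 6, and 1 (*TDH3*) in the coding part alone, an alternative added after the data were seen. The peaks per list, 15.4 on average, became 9.62 and 3.88 at these thresholds, 10 (upstream alone) and 5.38 (coding part alone), and ranged from 14.6 to 15.9 without 1 library. No gene passed the adjusted test for context or insert under any alternative (0 without each library too).

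The ratio of *TDH3* to *TDH1* ranged from 0.49 to 0.59 and that of *TDH2* to *TDH1* from 0.35 to 0.47 without 1 library, *TDH3* to *TDH2* from 0.06 to 0.15 and *ENO2* to *ENO1* from 0.20 to 0.30. With the means of 4 strains as units the ratios to *TDH1* were 0.54 and 0.42, where no p can pass. With the summit nearest the coding start, *TDH2* to *TDH1* was 0.14 and no longer passed, and *ENO2* to *ENO1* reversed to -0.0040. This alternative takes a coding summit where that lies nearer, at 215 and 153 for *TDH2* and at 345, 249 and 292 for *ENO2*. It therefore does not compare the same peaks, and the part of this in the change was not tested.

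Of 368 context and insert differences of single genes under the alternatives, 342 kept their sign, and none passed (adjusted p from 0.298 to 1). Context reversed with the nearest summit in *TDH2* (0.31), *PGK1* (0.33), *ENO2* (0.14) and *FBA1* (0.0014), with 500 bp in *PGK1* (0.070), with shared-region scaling in *TDH3* (0.030), *ENO2* (0.0026) and *CDC19* (0.15), with fold enrichment in *TDH3* (0.018) and *CDC19* (0.17), and relative to the median of all genes, an addition after the data were seen, in *TDH3* (0.031), *ENO2* (0.0031) and *CDC19* (0.15). Insert reversed with 500 bp in *PGK1* (0.19), with shared-region scaling in *PGK1* (0.085) and *FBA1* (0.084), with the nearest summit in *ENO2* (-0.37), and relative to the median in *PGK1* (0.090), *CDC19* (0.0011) and *FBA1* (0.089). Without 1 library, context ran from -0.21 to 0.017 in *TDH3* and from -0.11 to 0.092 in *CDC19*, and insert from -0.052 to 0.13 in *ENO2*.

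Replicate numbers name clones, and no label says that they pair libraries, so the main tests did not treat them as pairs. The deviations of same-numbered libraries correlated between -0.07 and 0.07. Counting error at these summits limits what this check can detect, so a pairing is not excluded. With a replicate block, or permuted within the other factor, 0 genes passed, and the smallest p of 0.0556 leaves 0 genes with an unadjusted p under 0.05. Genes with an unadjusted p under 0.05, 50 for context and 38 for insert, were 26 and 21 past a -log10 q of 5, 1 and 5 past 10, 27 and 21 with 500 bp, and 4 and 2 in the coding part alone. For context they were 18 with shared-region scaling. Summits of 13 to 16 fragments are the limit of the lists, which bounds statements about *TDH1* and the genes with no peak.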
